A study of Mus musculus with 12 samples.

Results

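Carbonic anhydrases were followed in B16-OVA melanoma cells treated with the MEK inhibitor GDC-0623 or its solvent. The members were Car2, Car4, Car5b, Car6, Car8, Car9, Car11, Car12, Car13 and Car14, represented by the 18 probe sets that the array annotation pairs with 1 of these 10 genes alone, out of 45037 probe sets and 18193 genes on the array. A probe set is a group of short probes on the array that read 1 transcript or a few related ones. The family was selected on the drug differences, as Car6 and Car9 were lower with the drug in these same arrays, so the differences between GDC-0623 and DMSO are given for all members as a description, with their standard error (SE) and no p-value. The changes from 24 h to 72 h were not used for that choice and were tested.

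Carbonic anhydrases are zinc enzymes that interconvert carbon dioxide and water with bicarbonate and protons. Where an isoform sits decides which compartment it buffers: Car2 and Car13 work in the cytosol, Car5b in mitochondria, Car6 is secreted, Car4 is held on the outer cell surface by a lipid anchor, and Car9, Car12 and Car14 span the plasma membrane with the catalytic domain outside. Car8 and Car11 are related proteins without catalytic activity. Car9 is widely known in tumors as a gene switched on in hypoxia by the hypoxia-inducible factors (HIF), and it acts beside bicarbonate, proton and lactate transporters that set the pH on both sides of the membrane.

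B16-OVA cells are mouse melanoma cells engineered to make chicken ovalbumin, a model antigen. The cells, 1 line cultured without other cells, received GDC-0623 at 100 nM or DMSO at the same concentration, and RNA was taken 24 h or 72 h later. This gave the groups DMSO 24h, GDC-0623 24h, DMSO 72h and GDC-0623 72h, with 3 arrays each and 12 in all. The arrays of a group are called biological replicates by the submitters, but no source says whether each had its own culture, and the p-values then cover just the spread between these 12 arrays. The values are RMA signals on the log2 scale, where a difference of 1 is a doubling. In bulk RNA, fewer cells with a transcript and less transcript per cell cannot be told apart.

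The 10 melanocyte markers measured, among them Tyr, Dct, Pmel and Mitf, were above background on every array. The summed signal of the whole marker list, on the log2 scale, was 16.605 to 16.624 in DMSO 24h and 16.769 to 16.823 in GDC-0623 24h, without overlap, and 16.594 to 16.7 in DMSO 72h and 16.69 to 16.754 in GDC-0623 72h. At 24 h 4 of the 10 markers rose with the drug, Oca2 and Gpr143 by 0.98 ± 0.10 and 0.85 ± 0.09 and Tyr and Mitf by 0.35 ± 0.06 and 0.34 ± 0.06 (log2 difference ± SE, limma adjusted p = 0.00285, 0.00283, 0.0142 and 0.0174), and at 72 h Oca2 alone did, by 0.69 ± 0.13 (limma adjusted p = 0.0141). Over all genes, 5.01% were called higher at 24 h and 4.03% at 72 h. Of the 13 markers measured for immune, endothelial, epithelial and fibroblast cells, 12 were at background, and Epcam exceeded it in part. Cd3e, among the 12, is also 1 of the genes used to set the background level. Over all genes, 5.86% were called lower at 24 h and 5.14% at 72 h. Of 6 genes that ERK signaling keeps high, 5 fell with GDC-0623 at 24 h and 4 at 72 h. Dusp6, a feedback phosphatase and the 1 of those that was above background on every array, fell by 1.41 ± 0.16 at 24 h, or by 1.63 without array 3 of GDC-0623 24h, and by 1.29 ± 0.12 at 72 h (n = 3 arrays a group, limma adjusted p = 0.00401 with all arrays and 0.000671). Phlda1 did not fall: it differed by 0.13 ± 0.06 at 24 h (limma adjusted p = 0.228) and rose by 0.43 ± 0.08 at 72 h (limma adjusted p = 0.013), and Etv4, near the background level, differed by 0.02 ± 0.11 at 72 h (limma adjusted p = 0.948). Array 3 of GDC-0623 24h stood apart from its replicates: Dusp6 read 9.95, 9.88 and 10.58, and Etv5, an ETS factor that depends on ERK, read 4.35, 4.22 and 6.08. The 24 h drug differences of the readable members are given with and without it.

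The windows upstream of Car6, Car9 and Car14 are shown because these are the secreted and membrane-bound members that exceeded background. The sequences are from RefSeq (GRCm38.p6) and cover the 250 bases before the annotated start, 5′ to 3′ on the gene's strand. Capitals mark matches to the motifs searched: the HIF core ACGTG or GCGTG, the E-box CACGTG, the M-box core CATGTG, the AP-1 site TGANTCA and the ETS core CCGGAA, all on both strands, so that the HIF core on the other strand reads CACGT or CACGC. The E-box contains the HIF core on both strands. The Car6 window lies at chr4:150201136-150201385 on the minus strand, the Car9 window at chr4:43506776-43507025 on the plus strand and the Car14 window at chr3:95904686-95904935 on the minus strand.
Car6: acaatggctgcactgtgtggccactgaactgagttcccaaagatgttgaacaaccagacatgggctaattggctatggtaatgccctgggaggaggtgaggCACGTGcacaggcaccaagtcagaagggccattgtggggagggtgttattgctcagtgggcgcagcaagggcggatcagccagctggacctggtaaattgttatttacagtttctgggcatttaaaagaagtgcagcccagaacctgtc
Car9: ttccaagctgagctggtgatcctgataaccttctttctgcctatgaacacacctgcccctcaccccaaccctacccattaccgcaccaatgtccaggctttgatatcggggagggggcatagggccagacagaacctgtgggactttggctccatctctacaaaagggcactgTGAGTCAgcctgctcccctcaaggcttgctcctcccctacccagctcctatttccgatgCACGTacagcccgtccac
Car14: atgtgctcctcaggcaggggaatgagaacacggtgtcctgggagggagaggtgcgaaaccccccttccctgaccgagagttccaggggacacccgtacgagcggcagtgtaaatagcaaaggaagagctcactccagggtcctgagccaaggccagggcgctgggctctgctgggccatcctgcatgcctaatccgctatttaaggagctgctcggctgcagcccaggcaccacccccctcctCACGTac

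In the Car6 window an E-box lay 149 to 144 bases before the start. The Car9 window held a HIF core 18 to 14 bases before the start, on the other strand, and an AP-1 site 77 to 71 bases before it. In Car14 a HIF core on the other strand stood 7 to 3 bases before the start. A HIF core was found in 38.6% of all 32851 windows of this length, an E-box in 6.02%, an AP-1 site in 6.75%, an ETS core in 12.03% and an M-box core in 12.25%, so a match alone does not set a member apart. RefSeq windows were matched for 7 of the 10 members. Car5b had 5 matches to the HIF core, Car11 had 1 in the first of its pair of windows and none in the second, Car4 had 2 overlapping ETS cores and Car12 had no match to any of the 5 motifs. Car2, Car8 and Car13 had no entry.

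RMA gives no call of presence, so a background level was set at 6.26 (log2), the 95th percentile of the mean signals of 61 probe sets for 36 genes that belong to other tissues. A probe set was called at background where none of its 4 group means exceeded this level. By that rule 12 of the 18 member probe sets were at background, 4 were above it on all 12 arrays and the other two exceeded it in part. Above it throughout were Car6, Car14 and 2 of the 3 probe sets of Car13. Car9 exceeded it on 9 arrays and Car11 on 8.

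**Figure D1:**
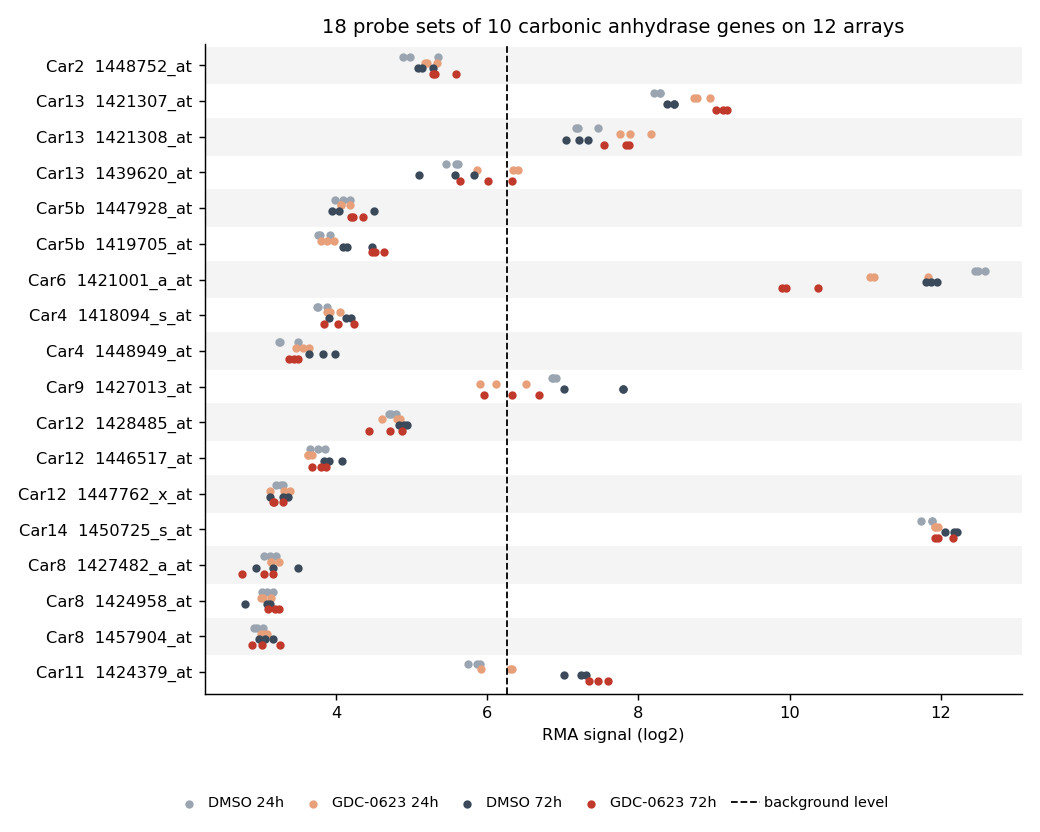
RMA signal (log2, horizontal axis) of each of the 18 probe sets on each of the 12 arrays, coloured by group, with the background level of 6.26 as a dashed line. Car6, Car14 and 2 probe sets of Car13 lie right of the line on every array, Car9 and Car11 lie on both sides of it, 1439620_at of Car13 lies right of it on 3 arrays, and the other 11 probe sets lie left of it.

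All probe sets of Car2 (1), Car4 (2), Car5b (2), Car8 (3) and Car12 (3) were at background, with array values from 2.75 to 5.58. The third probe set of Car13, 1439620_at, was also at background by its group means, although it exceeded the level on 3 arrays. With the 90th percentile of the reference genes (5.86) 11 member probe sets were at background, with the 99th (7.32) 12, and with the median of all probe sets (5.36) 10. The other carbonic anhydrases with own probe sets, Car1, Car3, Car5a, Car7, Car10 and Car15, were at background in all 12 of their probe sets, with array values from 2.53 to 6.08. Thus Car6, Car9, Car11, Car13 and Car14 were the members with a readable signal. Each probe set has its own background, and a level near 6.26 may be either.

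Car6, the secreted isoform known from saliva and milk, was read by 1 probe set, 1421001_a_at. In DMSO 24h the arrays read 12.50, 12.45 and 12.59. In GDC-0623 24h they read 11.06, 11.12 and 11.83, all below the DMSO arrays, with array 3 the highest. In DMSO 72h they read 11.81, 11.87 and 11.95, and in GDC-0623 72h 9.95, 9.90 and 10.37. The groups did not overlap at either time. The level was 2.26-fold lower with the drug at 24 h (log2 difference -1.18 ± 0.18, SE) and 3.49-fold lower at 72 h (-1.80 ± 0.12). Without array 3 of GDC-0623 24h the 24 h difference was -1.42. The 72 h difference minus the 24 h difference was -0.63 ± 0.24, or -0.38 ± 0.16 without that array, given here with no test.

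Car9, the membrane-bound isoform known as a hypoxia marker, was read by 1 probe set, 1427013_at, close to the background level. DMSO 24h gave 6.91, 6.86 and 6.87, and GDC-0623 24h gave 6.11, 5.90 and 6.51. DMSO 72h gave 7.80, 7.02 and 7.80, and GDC-0623 72h gave 6.33, 5.95 and 6.69. With the drug Car9 was below the DMSO arrays at both times, and only 1 of 3 arrays at 24 h and 2 of 3 at 72 h remained above the background level. The log2 difference was -0.71 ± 0.14 at 24 h (1.63-fold) and -1.22 ± 0.23 at 72 h (2.32-fold), and -0.88 at 24 h without array 3 of GDC-0623 24h. The drug groups reach the background level, which limits how large these folds can read. Array 2 was the lowest of its group in both 72 h groups, and array by array with the same replicate number the 72 h differences were -1.47, -1.07 and -1.11.

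**Figure D2:**
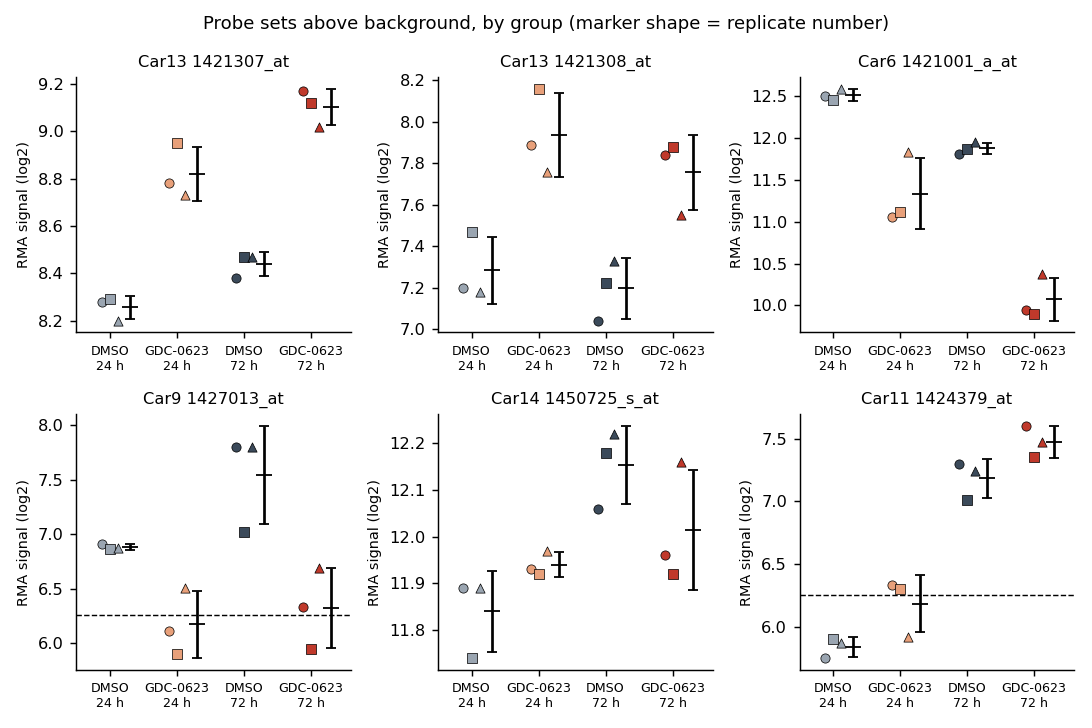
RMA signal (log2, vertical axis) of the 6 member probe sets above background throughout or in part, in the 4 groups. Each point is 1 array, the marker shape gives the replicate number, the bar is the mean ± SD of 3 arrays and the dashed line the background level. Car6 and Car9 are lower with GDC-0623 at both times, both Car13 probe sets are higher, and Car11 is higher at 72 h than at 24 h. The vertical axes differ between panels and do not start at 0.

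Car13, a cytosolic isoform, was higher with the drug on both of its probe sets above background. On 1421307_at the DMSO 24h arrays read 8.28, 8.29 and 8.20 and the GDC-0623 24h arrays 8.78, 8.95 and 8.73. At 72 h the same probe set read 8.38, 8.47 and 8.47 in DMSO and 9.17, 9.12 and 9.02 with the drug. There was no overlap at either time, and the log2 differences were 0.56 ± 0.08 at 24 h (1.48-fold) and 0.66 ± 0.08 at 72 h (1.58-fold). On 1421308_at they were 0.65 ± 0.12 and 0.56 ± 0.11, again without overlap. On the third, 1439620_at, whose group means all lay below the background level, they were 0.66 ± 0.13 and 0.49 ± 0.20, with overlap at 72 h. The 3 probe sets read the same gene and are not independent. Without array 3 of GDC-0623 24h the 24 h differences of the 3 probe sets were 0.61, 0.74 and 0.83.

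Car14, a membrane-bound isoform, stayed within a range of 11.74 to 12.22 over all 12 arrays on its probe set 1450725_s_at. DMSO 24h read 11.89, 11.74 and 11.89, and GDC-0623 24h 11.93, 11.92 and 11.97. DMSO 72h read 12.06, 12.18 and 12.22, and GDC-0623 72h 11.96, 11.92 and 12.16. The log2 difference with the drug was 0.10 ± 0.07 at 24 h, or 0.08 without array 3 of GDC-0623 24h, and -0.14 ± 0.09 at 72 h. The groups did not overlap at 24 h, where the drug arrays were higher, and overlapped at 72 h. The suffix _s_at marks a probe set that can read transcripts of more than 1 gene.

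Car11, one of the proteins without catalytic activity, moved with time more than with the drug. Its probe set 1424379_at read 5.75, 5.90 and 5.87 in DMSO 24h and 6.33, 6.30 and 5.92 in GDC-0623 24h. In DMSO 72h it read 7.30, 7.01 and 7.24, and in GDC-0623 72h 7.60, 7.35 and 7.47. At 24 h only 2 of the 6 arrays, both with the drug, exceeded the background level, whereas at 72 h all 6 did. The log2 difference with the drug was 0.34 ± 0.11 at 24 h, or 0.48 without array 3 of GDC-0623 24h, and 0.29 ± 0.10 at 72 h. The groups did not overlap at either time, though 5.92 in GDC-0623 24h lay close to 5.90 in DMSO 24h.

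As a description of the values on which the family was selected, 2 of the 18 probe sets passed the threshold in the lower direction at 24 h (Car6 and Car9) and 3 in the higher (all of Car13), where over the whole array 4.61% of probe sets were called lower and 3.83% higher (limma adjusted p below 0.05). At 72 h 2 passed it in the lower direction (the same as at 24 h) and 2 in the higher (1421307_at and 1421308_at of Car13), against 4.25% and 2.99% of all probe sets. These counts are no test of the family, and nothing is read from them. The 12 probe sets at background differed by -0.11 to 0.66 at 24 h and by -0.38 to 0.49 at 72 h, and in each case the highest value was 1439620_at of Car13.

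**Figure D3:**
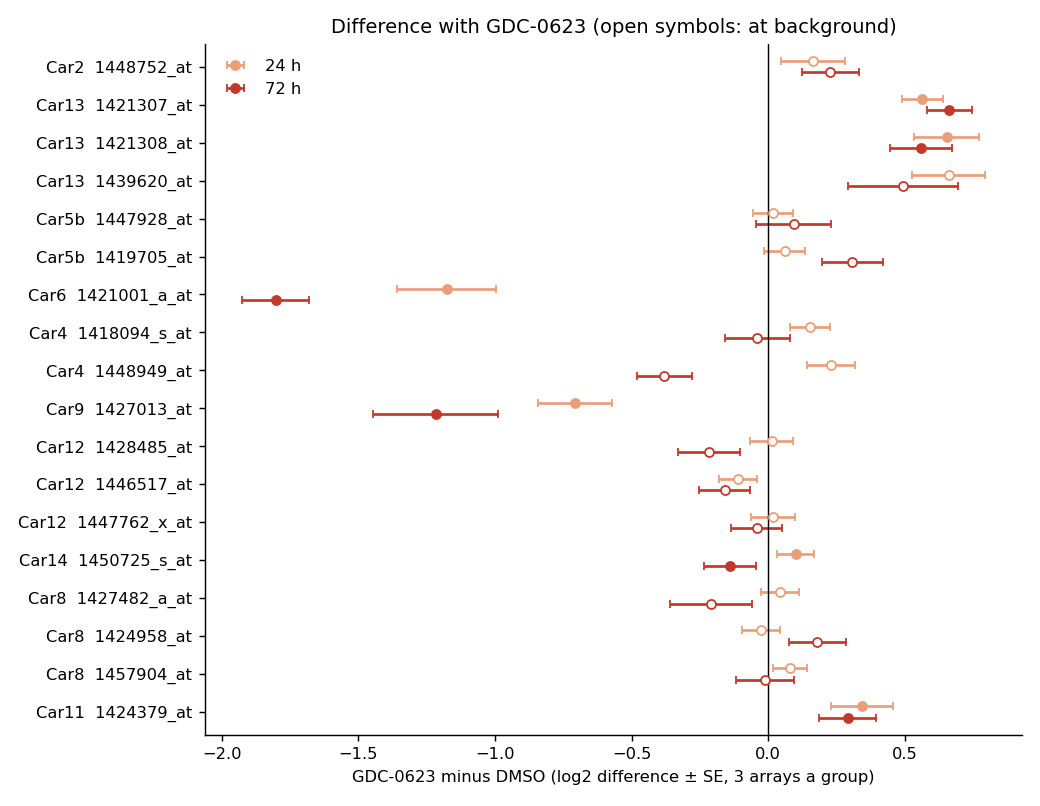
Log2 difference between GDC-0623 and DMSO (horizontal axis) for each of the 18 probe sets at 24 h and 72 h; points are differences of means over 3 arrays a group, bars are ± SE, and open symbols are probe sets at background. Car6 and Car9 lie left of 0 at both times and the 3 Car13 probe sets right of 0, while the other genes lie between -0.38 and 0.34.

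From 24 h to 72 h, the question was how the members moved in culture without and with the inhibitor. These comparisons use the same arrays as the drug comparisons and are not independent of them. In DMSO 1 of the 18 probe sets fell and 5 rose, against 14.3% of all probe sets called lower and 11.3% higher. Car6 fell by 0.64 ± 0.08 (limma adjusted p = 0.000559), with no overlap between the times. Car11 rose by 1.34 ± 0.09 (limma adjusted p = 7.37e-05), a 2.54-fold change that crossed the background level. Both calls held when any 1 array was left out.

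Car9 rose in DMSO by 0.66 ± 0.19 (limma adjusted p = 0.0308). This call was lost (adjusted p up to 0.105) when any of the 3 DMSO 24h arrays, or array 1 or 3 of DMSO 72h, was left out. Without array 2 of DMSO 72h, the lowest of its group, the rise was 0.92 (limma adjusted p = 0.000351). Car14 rose by 0.31 ± 0.08 (limma adjusted p = 0.0202), a call lost without array 2 of DMSO 24h or array 3 of DMSO 72h. 1448949_at of Car4 and 1419705_at of Car5b also passed the test, with differences of 0.49 ± 0.11 (limma adjusted p = 0.0109) and 0.41 ± 0.11 (limma adjusted p = 0.0233), but every array was below the background level. The Car5b call was lost without array 2 or 3 of DMSO 24h. Centring each array on its median moved the calls over all probe sets from 6460 lower and 5080 higher to 7952 and 3363, and the same 6 member probe sets were called in the same direction.

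In GDC-0623, 1 of the 18 probe sets fell from 24 h to 72 h and 3 rose, against 13.9% of all probe sets called lower and 11.3% higher. Car6 fell by 1.26 ± 0.20 (limma adjusted p = 0.00146), and fell by 1.02 without array 3 of GDC-0623 24h. Car11 rose by 1.29 ± 0.12 (limma adjusted p = 7.91e-05), or by 1.16 without that array (limma adjusted p = 0.000278). Car9 differed by 0.15 ± 0.19 (limma adjusted p = 0.61), or by 0.32 without that array (limma adjusted p = 0.284). Car13 rose on 1421307_at by 0.28 ± 0.09 (limma adjusted p = 0.0366) but differed by -0.18 ± 0.12 on 1421308_at (limma adjusted p = 0.318), so its probe sets disagreed. That rise was no longer called with each array centred on its median (adjusted p = 0.116) and without array 1 or 3 of GDC-0623 24h or array 1 or 2 of GDC-0623 72h. Car14 differed by 0.07 ± 0.08 (limma adjusted p = 0.563), and 1419705_at of Car5b rose by 0.66 ± 0.08 (limma adjusted p = 0.000369) below the background level. Over all probe sets centring moved the calls from 6250 lower and 5095 higher to 8174 and 3128. Between the times the control for labeling also differed: the spiked-in Dap transcript read 1.99 to 2.16 higher at its 3′ end than at its 5′ end at 24 h and 1.29 to 1.60 higher at 72 h, and its part in these changes was not tested.

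Carbonic anhydrases share their substrates with transporters. The 4 lists compared between GDC-0623 and DMSO were bicarbonate transporters, proton and lactate transporters, subunits of the V-ATPase proton pump, and HIF targets. Of 14 bicarbonate transporters measured, none was called lower and 3 were called higher at 24 h, where 5.86% of all genes were called lower and 5.01% higher. At 72 h none was called lower and 2 were called higher, against 5.14% and 4.03% of all genes. Slc4a2, an anion exchanger that carries bicarbonate out of the cell, rose at both times, by 0.39 ± 0.06 and 0.55 ± 0.09 (limma adjusted p = 0.00812 and 0.00694). Slc4a8, a sodium-driven bicarbonate importer, rose at 24 h by 0.50 ± 0.11 (limma adjusted p = 0.0264) on its brightest probe set. The mean over its probe sets was 0.14, which was not called, and the call was lost without array 1 or 3 of DMSO 24h or array 1 or 2 of GDC-0623 24h (adjusted p up to 0.104). Slc4a3, another anion exchanger, was called at 24 h at 0.32 ± 0.08 (limma adjusted p = 0.0469), a call lost with the replicate number entered as a block (limma adjusted p = 0.0888) and without any 1 array (up to 0.153). Slc26a6, an exchanger of chloride and bicarbonate, rose at 72 h by 0.44 ± 0.11 (limma adjusted p = 0.0387), with the call lost after arrays were centred on their medians (adjusted p = 0.053) and, of the 6 arrays, when any but array 2 of DMSO 72h was left out (up to 0.13).

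Of 13 proton and lactate transporters and their partners, none was called lower and 2 were called higher at 24 h, and 1 was called lower and none higher at 72 h. The shares over all genes are those given for the bicarbonate transporters. Slc16a3, the lactate and proton exporter MCT4, changed sign. Its arrays read 6.41, 6.18 and 6.08 in DMSO 24h and 6.92, 6.93 and 6.72 in GDC-0623 24h, and DMSO 72h was the highest group with 7.88, 7.67 and 7.49. The log2 difference with the drug was 0.63 ± 0.10 at 24 h (limma adjusted p = 0.00946) and -0.58 ± 0.13 at 72 h (limma adjusted p = 0.0313). The 72 h call was lost without array 1 or 2 of either 72 h group (adjusted p up to 0.114). Slc9a9, an endosomal sodium and proton exchanger, rose at 24 h by 0.92 ± 0.08 (limma adjusted p = 0.0015) and differed by 0.23 ± 0.18 at 72 h (limma adjusted p = 0.554).

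The V-ATPase, the proton pump of lysosomes and melanosomes, was higher with the drug in several subunits. Of 17 subunits measured, 7 were called higher at 24 h and 5 at 72 h, against 5.01% and 4.03% of all genes. None was called lower at either time. The median difference was 0.20 at 24 h and 0.23 at 72 h, against 0.01 over all genes at both times, and 16 and 17 of the 17 subunits had a positive sign. At 24 h Atp6v0d1, Atp6v0b and Atp6v0a1 rose by 0.43 ± 0.07, 0.42 ± 0.06 and 0.39 ± 0.08 (limma adjusted p = 0.00839, 0.00885 and 0.02). At 72 h Atp6v0a2, Atp6v0a1 and Atp6v1h rose by 0.64 ± 0.08, 0.60 ± 0.08 and 0.50 ± 0.09 (limma adjusted p = 0.00208, 0.00274 and 0.0113). With 1 array left out, 2 to 8 subunits were called at 24 h and 2 to 4 at 72 h. The melanocyte markers, listed above, were higher with the drug at 24 h as well, and their part in these values was not tested. The 24 h call of Atp6v0a1 was lost without array 1 or 3 of DMSO 24h or array 1 or 2 of GDC-0623 24h (adjusted p up to 0.0828), and the 72 h call of Atp6v1h without array 2 of GDC-0623 72h (adjusted p = 0.0507).

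**Figure D4:**
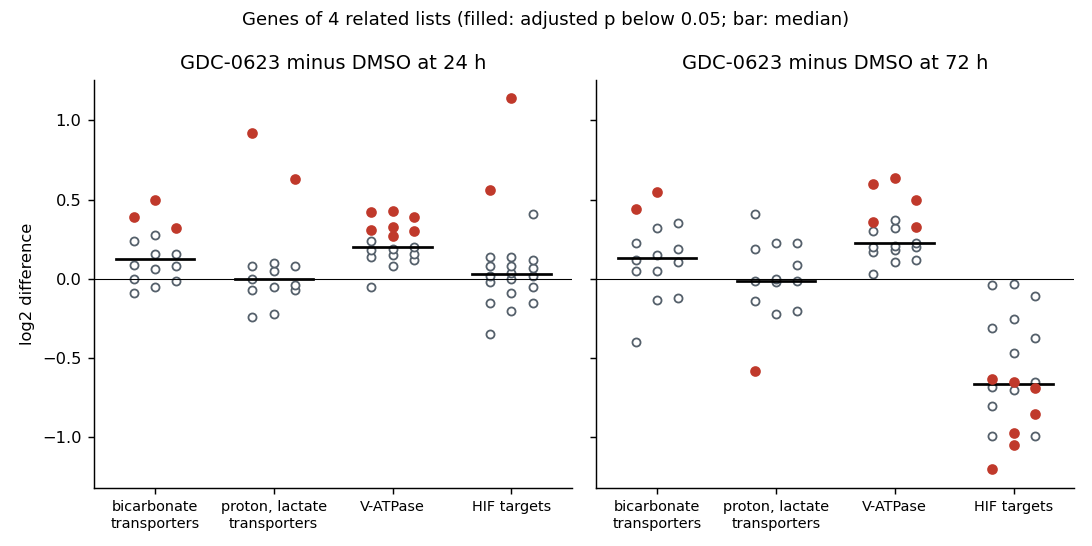
Log2 difference between GDC-0623 and DMSO (vertical axis) for each gene of the 4 lists at 24 h (left) and 72 h (right); each point is the brightest probe set of a gene, filled points have a limma adjusted p below 0.05, and bars are list medians. The HIF targets centre on 0.03 at 24 h and lie below 0 in all 20 genes at 72 h, whereas the V-ATPase subunits lie above 0 in 16 of 17 and 17 of 17 genes.

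HIF targets, genes that hypoxia-inducible factors switch on, gave the reference for Car9. In DMSO, 17 of the 20 targets rose from 24 h to 72 h and 1, Pfkfb3, fell, against 14.2% of all genes called higher and 16.9% lower. The median difference over the list was 0.79, against 0.04 over all genes. The mitochondrial protein Bnip3 rose by 2.92 ± 0.12 and the kinase Pdk1, which keeps pyruvate out of mitochondria, by 2.39 ± 0.15 (limma adjusted p = 1e-05 and 5.4e-05). Car9 rose over the same interval by 0.66, as given above.

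At 24 h none of the 20 HIF targets was called lower with GDC-0623, and 2 were called higher, against 5.86% and 5.01% of all genes. Ndrg1, a stress-response gene, rose by 1.14 ± 0.10 (limma adjusted p = 0.0017) and Bnip3 by 0.56 ± 0.09 (limma adjusted p = 0.00877). The list's median difference was 0.03. The difference of Car9 on the same arrays was -0.71. Bnip3 was not called in the model of all 12 arrays (adjusted p = 0.201). With the mean over each gene's probe sets 2 targets were called lower and 3 higher, and without array 3 of GDC-0623 24h 1 was called lower and 3 higher.

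At 72 h 7 of the 20 targets were called lower with the drug and none higher, against 5.14% and 4.03% of all genes. All 20 had a negative sign, and the median difference was -0.66. Pdk1 fell by 1.20 ± 0.26, the glycolytic enzyme Hk2 by 1.05 ± 0.17 and the oxygen sensor Egln1 by 0.97 ± 0.21 (limma adjusted p = 0.022, 0.00614 and 0.0231). Pdk1 was not called without array 1 or 3 of DMSO 72h, nor Egln1 without those or array 1 or 2 of GDC-0623 72h (adjusted p up to 0.0827 and 0.0838). The difference of Car9 was -1.22. With a replicate block 13 targets were called lower at 72 h. With 1 array left out the count was 1 without array 1 of DMSO 72h, 2 without array 3 of DMSO 72h or array 1 or 2 of GDC-0623 72h, 12 without array 2 of DMSO 72h and 11 without array 3 of GDC-0623 72h. The median remained between -0.85 and -0.54. Hif1a and Epas1, which encode the oxygen-regulated subunits of HIF, differed by 0.26 ± 0.07 and -0.03 ± 0.09 at 24 h and by 0.02 ± 0.09 and -0.20 ± 0.14 at 72 h, none of which passed the test (limma adjusted p = 0.0705, 0.878, 0.94 and 0.492).

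The change of the drug effect between the times was tested for the listed genes. Of the 20 HIF targets, 5 had a lower effect at 72 h than at 24 h and none a higher one, where 2.1% of all genes were called lower and 1.97% higher. These were Bnip3, Higd1a, Hk2, Ndrg1 and Pdk1, and the list's median was -0.61. With a replicate block 9 were called. No bicarbonate transporter was called in this comparison, Slc16a3 was the 1 transporter of protons or lactate called, and Atp6v0a2 the 1 subunit of the V-ATPase.

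The arrays were then set side by side, a comparison chosen after the values had been seen. The mean signal of the 20 HIF targets was 9.05, 8.98 and 9.01 in DMSO 24h and 9.09, 9.16 and 9.07 in GDC-0623 24h, so that the drug arrays all lay above the DMSO arrays, and all 3 drug arrays had less Car9. In DMSO 72h the mean was 10.12, 9.65 and 10.01, and in GDC-0623 72h 9.34, 9.03 and 9.54. Array 2 was the lowest of its group in HIF targets as in Car9 in both 72 h groups, and the order of the 3 arrays in GDC-0623 72h was the same for both. GDC-0623 72h array 2 had a mean of HIF targets, 9.03, within the DMSO 24h range of 8.98 to 9.05. Arrays 1 and 3 of the same group, at 9.34 and 9.54, lay above this range. The Car9 signal of array 2, 5.95, was below the background level, against 6.86 to 6.91 in DMSO 24h. Whether Car9 moved with the HIF targets or apart from them was not tested. Car6 had the same order of arrays as the HIF targets in GDC-0623 72h, with 9.95, 9.90 and 10.37. In DMSO 72h it did not, as its array 2 read 11.87, between arrays 1 and 3 at 11.81 and 11.95.

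**Figure D5:**
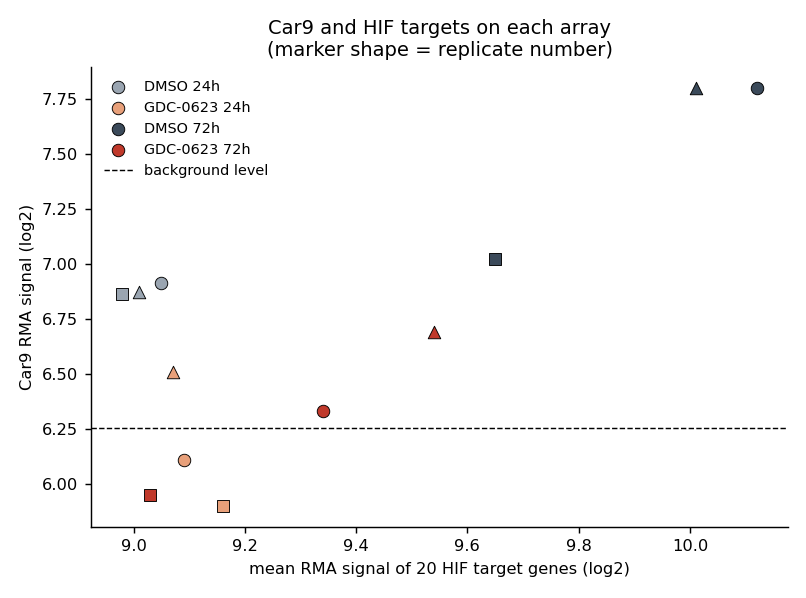
Car9 signal (log2, vertical axis) against the mean signal of 20 HIF target genes (log2, horizontal axis) on each of the 12 arrays; colours are groups, marker shapes replicate numbers, and the dashed line is the background level of 6.26. At 24 h the groups span 8.98 to 9.05 (DMSO) and 9.07 to 9.16 (GDC-0623) on the horizontal axis, and the GDC-0623 arrays lie lower on the vertical one, while at 72 h the DMSO arrays lie above and to the right of the GDC-0623 arrays.

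Across the 12 arrays, the genes with the pattern most like that of Car6, among 9665 genes above background on average, were Lsm8, Ndufs7 and Exosc10 (Pearson r = 0.985, 0.985 and 0.981). For Car9 they were Rp9, Adgrl2 and Slc35f1 (0.977, 0.960 and 0.957), for Car13 Laptm4a, Tmem150a and Impact (0.988, 0.979 and 0.977), and for Car14 Hemk1, Pkm and Rad51c (0.940, 0.932 and 0.927). Points of a group share treatment and time, so these values describe the order of 4 groups more than of 12 arrays. The changes of the most similar genes were often smaller: Lsm8 had group means of 11.91, 11.65, 11.72 and 11.20 in DMSO 24h, GDC-0623 24h, DMSO 72h and GDC-0623 72h, and Car6 12.51, 11.34, 11.88 and 10.07. Among the members, r was 0.573 for Car9 and Car6, -0.959 for Car13 and Car6 and -0.681 for Car13 and Car9.

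Some of the genes next to the members with a readable signal were read as well, by gene order in GRCm38.p6. Beside Car9, Arhgef39 fell with the drug at 72 h by 1.17 ± 0.12 (limma adjusted p = 0.000957) and differed by -0.22 ± 0.09 at 24 h (limma adjusted p = 0.185). Tpm2, on the other side of Car9, differed by 0.01 ± 0.10 and 0.06 ± 0.10 (limma adjusted p = 0.968 and 0.832). Its group means all lay below the background level, so it may not have been read. Dbp, a clock-controlled transcription factor and the next gene to Car11, rose from 24 h to 72 h by 2.15 ± 0.14 in DMSO and by 1.77 ± 0.17 in GDC-0623 (limma adjusted p = 6.28e-05 and 9.97e-05). Ntn5, on the other side of Car11, differed by 0.14 ± 0.10 and 0.08 ± 0.10 (limma adjusted p = 0.34 and 0.606), also with all group means below the background level. Car13 is followed by Car1, Car3 and Car2, and these neighbours of the same family were at background in all groups. Slc2a7 and Eno1, directly beside Car6, had no probe set of their own. Further out, Slc2a5, a fructose transporter, differed with the drug by 0.13 ± 0.06 and -0.05 ± 0.08, and Rere, a nuclear corepressor, by -0.11 ± 0.06 and -0.10 ± 0.08, none of which passed the test (limma adjusted p = 0.241, 0.801, 0.302 and 0.577). Beside Car14, Anp32e fell with the drug at 24 h by 0.293 ± 0.062 and differed by -0.213 ± 0.084 at 72 h (limma adjusted p = 0.0259 and 0.187). Aph1a, on its other side, differed by -0.04 ± 0.069 and 0.15 ± 0.085 (limma adjusted p = 0.792 and 0.379).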

How the data were processed

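Total RNA (200 ng) from 12 B16-OVA pellets was labeled with a 3′ IVT kit and hybridised to Affymetrix mouse 3′ expression arrays. The authors normalised the arrays with RMA and deposited 1 table of log2 signals (2.21 to 14.47, to 2 decimals), which were used as deposited. RMA equalises the arrays, so a shift shared by all genes would be lost. Precision is set by the 3 arrays of each group.

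The 64 control probe sets were left out and 45037 were tested. Genes came from GEO's platform annotation (34945 probe sets with 1 gene, 932 with several, not used). The brightest probe set stood for a gene of a list. Groups were compared with limma 3.58.1 in R 4.3.3 (lmFit, eBayes, two-sided) on the 6 arrays of a comparison, with Benjamini-Hochberg adjustment over all probe sets at 0.05; the change of the drug effect between times used all 12 arrays. Scripts were tested on simulated data. Members, lists and alternatives were chosen with earlier results of these data known.

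Named were all member probe sets, the other carbonic anhydrases, of each list and drug comparison up to 3 called genes above background with the largest difference, the 3 genes most correlated with a member, and check genes; neighbours and the HIF mean per array were added later.

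The labels share replicate numbers between groups. Over probe sets above background, deviations from group means correlated within a number at 0.287, 0.353 and 0.331 between the 24 h groups and at 0.335, 0.318 and 0.234 between the 72 h groups, so the numbers pair arrays within a time. The main fits, and the p-values from them, left this pairing out. The replicate block takes it in, and some counts called differ with it, as given for the lists. Between times the values within a number were 0.075, 0.017 and 0.007 in DMSO and 0.185, -0.01 and 0.26 in GDC-0623. In GDC-0623, array 1 at 72 h and array 2 at 24 h, of unlike number, also reached 0.243. A pairing between times was thus not seen in DMSO and is unclear in GDC-0623.

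The alternatives were the replicate block, all 12 arrays in 1 model, brighter probe sets only, median centring, repeated quantile normalisation, a trended and robust variance prior, each array left out, another background level and averaging the probe sets of a gene.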

Additional observations from a re-analysis of the deposited data

Results flagged for a closer look

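For 8 genes, the effect of GDC-0623 differed between 72 h and 24 h by limma's test of the difference itself over all 12 arrays. They were taken from the list genes named for their drug differences and from the HIF targets called for this change. Of the other genes named here, Arhgef39 (-0.95 ± 0.16, limma adjusted p = 0.00633), Pkm (-0.40 ± 0.10, limma adjusted p = 0.0475) and Etv4 were also called. All values are log2 differences ± SE, 72 h minus 24 h. Ndrg1 changed by -1.83 ± 0.23 (limma adjusted p = 0.00189), from 1.14 at 24 h to -0.69 at 72 h. Pdk1 changed by -1.61 ± 0.34 (limma adjusted p = 0.0212), from 0.41 to -1.20. Bnip3 changed by -1.55 ± 0.34 (limma adjusted p = 0.025), from 0.56 to -0.99. Slc16a3, the lactate exporter, changed by -1.21 ± 0.18 (limma adjusted p = 0.00424), from 0.63 to -0.58, with its DMSO 24h arrays close to the background level. Hk2 changed by -1.05 ± 0.20 (limma adjusted p = 0.014), from 0.00 to -1.05. Higd1a, a mitochondrial protein induced by hypoxia, changed by -0.98 ± 0.23 (limma adjusted p = 0.0347), from 0.14 to -0.85. Atp6v0a2, a subunit of the V-ATPase, changed by 0.44 ± 0.10 (limma adjusted p = 0.0303), from 0.19 to 0.64. Etv5, an ETS factor that depends on ERK, changed by 2.77 ± 0.48 (limma adjusted p = 0.00852), from -4.06 to -1.29, and its DMSO arrays read 8.86 to 8.99 at 24 h and 5.12 to 5.59 at 72 h. Every array but those of DMSO 24h was below the background level of 6.26, so the 72 h difference of Etv5 lies between groups at background, and the size of the change is limited by that level. Without array 3 of GDC-0623 24h the change was 3.37 ± 0.16 (limma adjusted p = 2.91e-06). With each of the 12 arrays left out in turn, Ndrg1, Slc16a3, Hk2 and Etv5 were called every time (adjusted p up to 0.00803, 0.0156, 0.0421 and 0.0247). Pdk1 was called in 7 of the 12 (adjusted p up to 0.0619), Bnip3 in 5 (up to 0.0685), Atp6v0a2 in 4 (up to 0.0873) and Higd1a in 2 (up to 0.0801). Atp6v0a2 was also not called with the replicate block (limma adjusted p = 0.0535) or over the mean of its probe sets (0.21, adjusted p = 0.177), nor were Pdk1, Bnip3 and Higd1a with the trended and robust prior (adjusted p = 0.0638, 0.0801 and 0.066). The corresponding differences of Car6 and Car9, -0.63 ± 0.24 and -0.51 ± 0.30, (-0.38 ± 0.16 and -0.34 ± 0.30 without array 3 of GDC-0623 24h) were not tested because the family was chosen on both drug comparisons.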

How the results depend on the processing

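The replicate block, the model of all 12 arrays and the trended and robust prior leave the drug differences of Car6 and Car9 as they are. Their groups did not overlap, so leaving out 1 array cannot reverse the sign, and the ranges below are a description. Median centring and repeated quantile normalisation also kept the sign. With each array left out in turn, Car6 lay between -1.42 and -1.04 at 24 h and between -1.95 and -1.72 at 72 h, and Car9 between -0.88 and -0.57 and between -1.48 and -1.03. The number of member probe sets past the threshold with the drug, which describes the values the family was selected on and says nothing of stability, was 5 at 24 h and 4 at 72 h, and 5 and 4 with the replicate block. At 24 h it was 3 in the model of all 12 arrays and 2 to 6 with 1 array left out, and at 72 h 3 to 5. The calls over all probe sets moved as well. At 24 h they went from 2077 lower and 1724 higher to 504 and 629 without array 1 of GDC-0623 24h. Without array 3 of that group they were 2818 and 2273. At 72 h they went from 1913 and 1347 to 853 and 530 without array 2 of GDC-0623 72h. From 24 h to 72 h the number of member probe sets called was 6 in DMSO (3 to 6 with 1 array left out) and 4 in GDC-0623 (3 to 4). Over all probe sets the fewest called with 1 array left out were 4892 lower and 3298 higher in DMSO. In GDC-0623 they were 4939 and 3470. The GDC-0623 rise of 1421307_at of Car13 turned to -0.04 when the probe sets of Car13 were averaged.

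Over the 4 lists, 14 genes were called at 24 h, 12 with the replicate block, 23 with the trended and robust prior and 7 to 17 with 1 array left out. At 72 h the 15 called became 24 with the replicate block, 29 in the model of all 12 arrays and 5 to 18 with 1 array left out. The 33 called in DMSO over time ranged from 26 to 33. For the change of the drug effect, 7 genes were called, 13 with the replicate block, 13 among brighter probe sets, 11 with the trended and robust prior and 3 to 16 with 1 array left out. The replicate block lost the calls of Slc4a3 at 24 h and of the change of Atp6v0a2, and of no other gene of these lists named here. Pdk1 and Egln1 at 72 h were not called with the trended and robust prior (adjusted p = 0.122 and 0.0623), nor Atp6v1h at 72 h over the mean of its probe sets (0.27, adjusted p = 0.0607).

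With 3 arrays a group these counts are imprecise. Signals near the background level, among them Car9 with the drug and Car11 at 24 h, give compressed differences, and a probe set at background may not read its gene.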
